A study of Drosophila melanogaster with 18 samples.

Results

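The locus of mimi, a long noncoding RNA (lncRNA:mimi, FBgn0051451), and the 2 protein-coding genes on either side of it, CG31140 (FBgn0051140) and CG13603 (FBgn0039135), were followed through 18 RNA libraries from heads of adult Drosophila melanogaster. These 3 genes were chosen by name and position, 3 of the 17558 genes of the count table. Δmimi flies carry a CRISPR-Cas9 deletion in the mimi gene, made with a pair of guide RNAs, and wild-type flies were w1118. Both genotypes were untreated adults, each preparation pooled the heads of many males and females, and nothing in the labels restricts a library to neurons. In each of 3 preparations per genotype, a tissue lysate and pellets of a fast spin of the cleared lysate were sequenced as total RNA, giving 6 groups of 3 libraries. The cleared lysate was split before the fast spin, and a pellet was collected directly (granules 1) or after a wash (granules 2).

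Architectural RNAs are noncoding transcripts around which proteins and other RNAs gather into membraneless granules. mimi was named by the study as such an RNA of neurons, for granules that hold the double-stranded RNA-binding protein Staufen, and as a target of FNE and RBP9, neuronal RNA-binding proteins of the ELAV family. CG31140 encodes a member of the diacylglycerol kinase family, enzymes that turn the lipid messenger diacylglycerol into phosphatidic acid. CG13603 is a protein-coding gene for which no role is given here. A deletion in a noncoding locus can remove a transcript and also disturb the genes beside it, so the comparison of the 3 genes asks whether the loss in Δmimi flies stayed with mimi.

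All 3 genes lie on chromosome arm 3R (assembly BDGP6, the sequence of dm6). CG31140 covers bases 23963180 to 23983232 on the plus strand, with 7622 exonic bases and 7 annotated transcripts. mimi covers bases 23983503 to 23985065 on the same strand as a single exon, 270 bases beyond the end of CG31140. CG13603 covers bases 23985213 to 23986569 on the minus strand in 4 exons, 147 bases beyond mimi and pointing towards it. mimi has 2 annotated transcripts that share their start: mimi-RC has 1063 bases, and mimi-RD runs on for another 500 bases to a length of 1563. A microRNA hairpin, mir-9381, overlaps the first 67 bases of mimi and was not counted as a gene of its own. It covers bases 23983496 to 23983569 on the plus strand, inside the extent that the study's methods give for the deletion. Its loss in Δmimi heads could not be followed in these counts. 3 of the 7 CG31140 transcripts reach the end next to mimi, and their annotated 3′ UTR has 1327 bases.

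**Figure D1:**
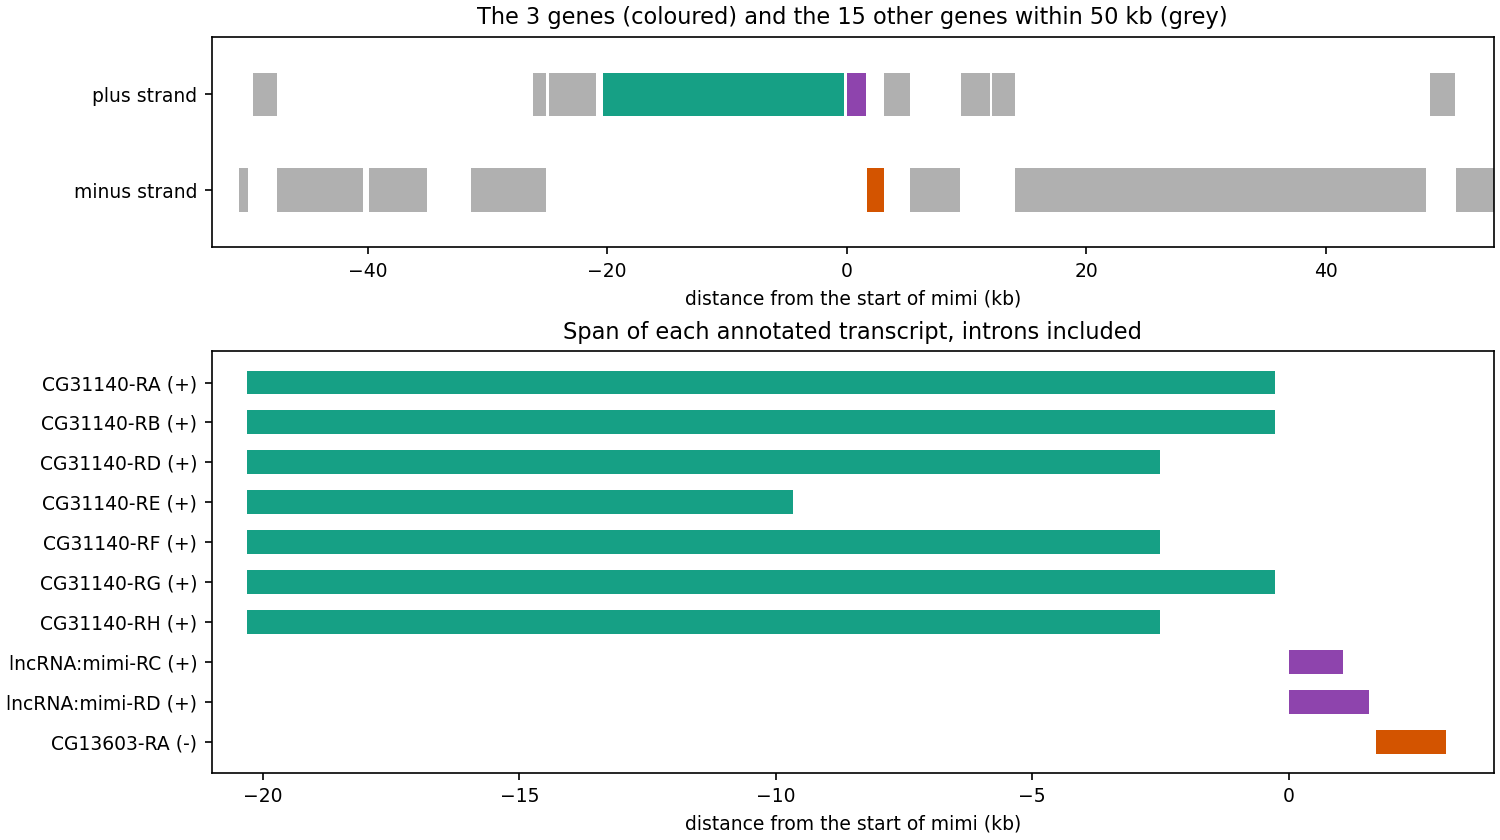
Gene spans around mimi, with the distance from the start of mimi in kb on the horizontal axis. The upper panel shows the 3 genes in colour and the 15 other genes within 50 kb in grey, by strand; the lower panel shows the span of each annotated transcript of the 3 genes, with 7 for CG31140, 2 for mimi and 1 for CG13603, and the gaps of 270 and 147 bases beside mimi.

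The sequences that define the mutant and tell the mimi transcripts apart are shown first, because the reads left in Δmimi heads have to be read against them. Both guides and all primers below were designed by the study for the mimi locus. Capitals in the second guide mark the 18 bases that it shares with the primer closing the cloned mimi-RC fragment. Capitals in the reverse complement of that primer mark the 3 bases that follow the guide's match, a PAM of the form NGG.
mimi guide 1: tggtagtaccatgaggcgtg
mimi guide 2: agTGTTAATTGTAAGATCCC
reverse complement of the closing primer of mimi-RC: tgttaattgtaagatcccAGG
qPCR primers for both transcripts: atcatcccagattgcgtagc
with: gggctaatcgatccagtgaa
qPCR primers for mimi-RD: agactacgcaagcaaatacgg
with: gggtttggatttcacgtttg
The second guide thus matches the far end of the cloned mimi-RC fragment, and the 500 bases annotated only in mimi-RD lie past mimi-RC. The cut sites were not placed from the guide sequences, since no genome sequence was used here. Set on the annotated start of mimi, the extent that the methods give for the deletion removes the start and all of mimi-RC. It leaves about 446 of the 1563 bases of mimi (396 to 496 with the rounding of its length), all annotated only in mimi-RD. The first base left would lie 5 to 105 bases past mimi-RC, while the second guide matches within the cloned mimi-RC fragment. Whether the last bases of mimi-RC are removed was not tested. The counts per gene do not tell the 2 transcripts apart.

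The preparations numbered 2 stood apart in both genotypes. Flight and leg muscle markers (5 of 5 measured) summed to 20894 to 23427 CPM in the fractions of Δmimi preparation 2, against 5385 to 9152 CPM in Δmimi preparations 1 and 3. They summed to 17668 to 18852 CPM in the fractions of wild-type preparation 2, against 5417 to 6706 CPM in wild-type preparations 1 and 3. Results between genotypes for mimi, CG31140, CG12268, laza, Hsp68, Lsp2 and the muscle and oocyte markers are also given without preparation 2 of both genotypes. This choice was made after seeing the data.

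mimi was nearly gone from Δmimi heads in all 3 fractions. In lysate, mimi had 15.9, 11.8 and 12.1 CPM (counts scaled to library size) in Δmimi heads, against 1491, 947 and 1280.4 CPM in wild-type heads. In granules 1, it had 9.82, 14.1 and 7.58 CPM in Δmimi preparations, against 2421, 2798 and 2350.0 CPM in wild-type preparations. In granules 2, it had 14.5, 20.1 and 6.59 CPM in Δmimi preparations, against 2441, 2383 and 2321 CPM in wild-type preparations. Every Δmimi library was far below every wild-type library, so each library carried the level of mimi that its label called for. On the log2 scale, Δmimi over wild type was −6.55 in lysate (SE 0.27, adjusted p = 0.000103), −7.89 in granules 1 (SE 0.27, adjusted p = 1.69e-05) and −7.41 in granules 2 (SE 0.38, adjusted p = 9.43e-05), by the quasi-likelihood test of edgeR with Benjamini-Hochberg adjustment over all genes tested. Without preparation 2 of both genotypes it was −6.62, −8.09 and −7.74 (largest edgeR adjusted p = 0.000942).

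A gene counted as called when its adjusted p was under 0.05 and its absolute log2 fold change above 0.5. Of the 3 genes, mimi was called in each of the 3 genotype comparisons, and CG31140 and CG13603 were called in none. Over all genes tested, 1.64% were called between genotypes in lysate, 5.76% in granules 1 and 5.24% in granules 2. Complete separation of the Δmimi from the wild-type libraries was found for 19.1%, 26.3% and 24.2% of all genes in lysate, granules 1 and granules 2, and for mimi in every fraction. A more negative log2 fold change than that of mimi was found for 2 of 9774 genes in lysate, 1 of 9763 in granules 1 and 0 of 9636 in granules 2.

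**Figure D2:**
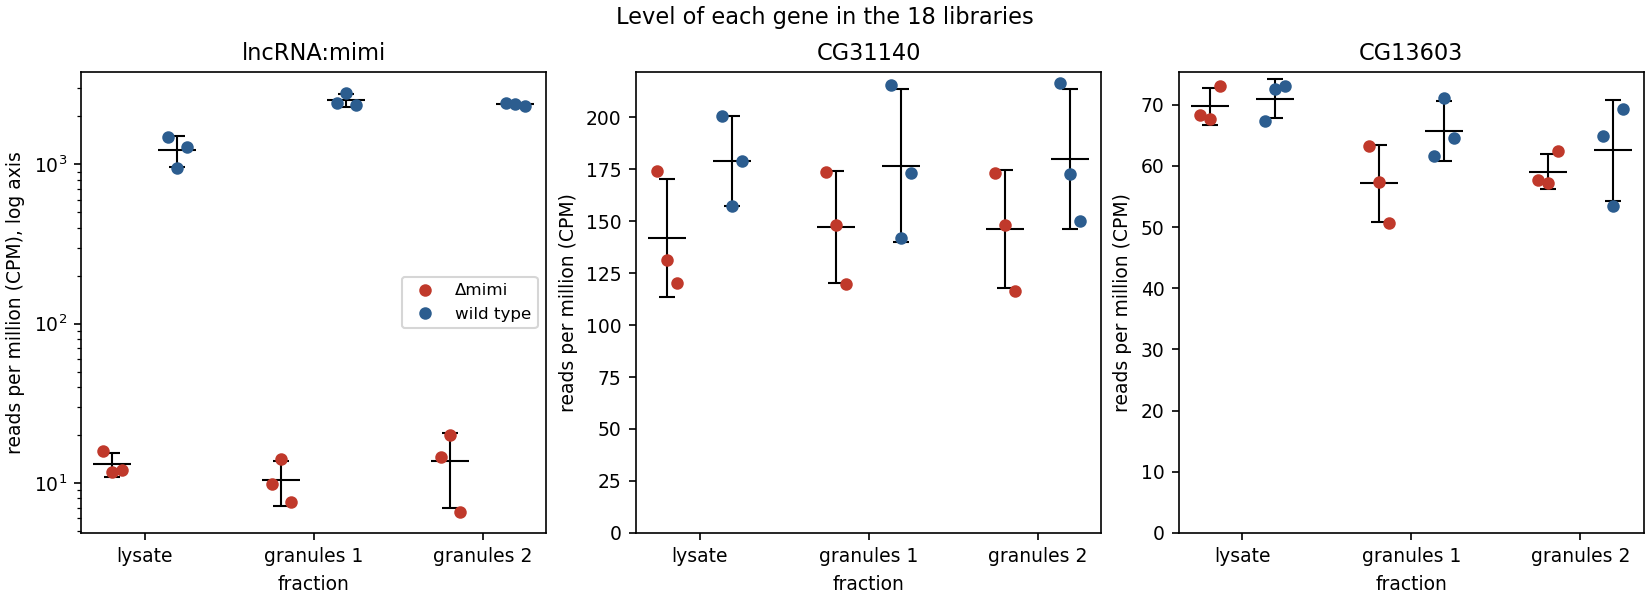
CPM of lncRNA:mimi (log axis), CG31140 and CG13603 (linear axes) by fraction. Each point is a library, Δmimi in red left of wild type in blue, and the black bar and whiskers give the mean ± SD of 3 preparations; mimi lies between 6.59 and 20.1 CPM in Δmimi and between 947 and 2798 CPM in wild-type libraries, while the points of both genotypes overlap for the flanking genes.

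A small number of reads was still assigned to mimi in Δmimi heads. The 9 Δmimi libraries held 30 to 113 mimi reads, against 7090 to 18379 in the 9 wild-type libraries. Set against the wild-type library of the same number and fraction, the level that remained was between 0.284% and 1.24%. Per exonic kb, mimi had 0.276 to 0.660 times as many reads as CG31140 in Δmimi libraries, against 29.3 to 96.2 times in wild-type libraries. If all mimi reads of a Δmimi library lay in the about 446 bases that the deletion leaves, their density there would be 0.966 to 2.31 times that of CG31140. The study noted from its read tracks that CG31140 transcripts can run past their annotated end into the mimi locus, and counts per gene cannot tell such reads from those of mimi. Where these reads lie and which transcript they come from was not tested.

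In wild-type heads, mimi was among the most abundant long noncoding RNAs, and it gained rank in the pellets. Among the 2262 long noncoding and antisense RNAs of the annotation, mimi ranked 2 by CPM in all granules 1 libraries and 2 or 3 in granules 2, against 5 in every lysate. Its share of all long noncoding RNA counts was 16.9% to 18.4% in granules 1 and 14.9% to 19.1% in granules 2, against 7.29% to 8.83% in lysate. Among all 17252 genes with an annotation, mimi ranked 31 to 37 in the granule libraries, against 50 to 126 in lysate. By CPM per exonic kb it ranked 1 or 2 among the long noncoding RNAs in all 9 wild-type libraries. The most abundant of these RNAs per kb, lncRNA:noe, a nervous system transcript, averaged 1949 CPM per kb in wild-type granules 1, against 4847 CPM per kb in wild-type lysate. mimi averaged 1614 ± 154 CPM per kb in wild-type granules 1 and 1524 ± 38.2 CPM per kb in granules 2, against 793 ± 176 CPM per kb in lysate (SD, n = 3 each).

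mimi was about doubled in both granule fractions of wild-type heads. The values per library given above show no overlap: the lowest wild-type granule library had 2321 CPM and the highest wild-type lysate 1491 CPM. Within a preparation, the CPM of granules 1 over that of lysate was 1.62, 2.95 and 1.84, and that of granules 2 over lysate was 1.64, 2.52 and 1.81. The largest ratio in both cases came from preparation 2, whose lysate held the least mimi (947 CPM). Over lysate, mimi changed on the log2 scale by 1.01 in granules 1 (SE 0.18, edgeR adjusted p = 0.0171) and 0.95 in granules 2 (SE 0.18, edgeR adjusted p = 0.0159). In these comparisons 8.17% of all genes tested in granules 1 and 9.46% in granules 2 were called, and the libraries of 32.7% and 34% of the genes did not overlap. The call was lost without preparation 1 (edgeR adjusted p = 0.0958 in granules 1 and 0.0854 in granules 2). It was also lost without preparation 3 (edgeR adjusted p = 0.279 and 0.226). The log2 fold changes of mimi in these smaller fits were 0.97 to 1.20, so its change did not shrink. Without preparation 3, only 49 genes kept or gained a call for granules 1, where all preparations gave 796. For granules 2 there were 79, where all preparations gave 909. Losing the call in that fit is thus no trait of mimi. Without preparation 2 mimi was called in both fractions, at 0.78 and 0.79 (edgeR adjusted p = 0.00337 and 0.00838).

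Among the long noncoding RNAs tested in wild-type heads, mimi ranked 12 of 209 by its change in granules 1 and 8 of 188 in granules 2. The median log2 fold change of these RNAs was −0.13 in granules 1 and −0.11 in granules 2, and that of all genes −0.04 in both. Of the RNAs near mimi in level, Hsromega, a stress-response RNA of nuclear speckles, was higher in granules 1 (log2 ratio 1.19 with an SE of 0.23, edgeR adjusted p = 0.0215). lncRNA:noe was lower in granules 1 (−1.33, SE 0.18, edgeR adjusted p = 0.00588), and for lncRNA:CR42862 the value was −0.06 (SE 0.18, edgeR adjusted p = 0.877).

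**Figure D3:**
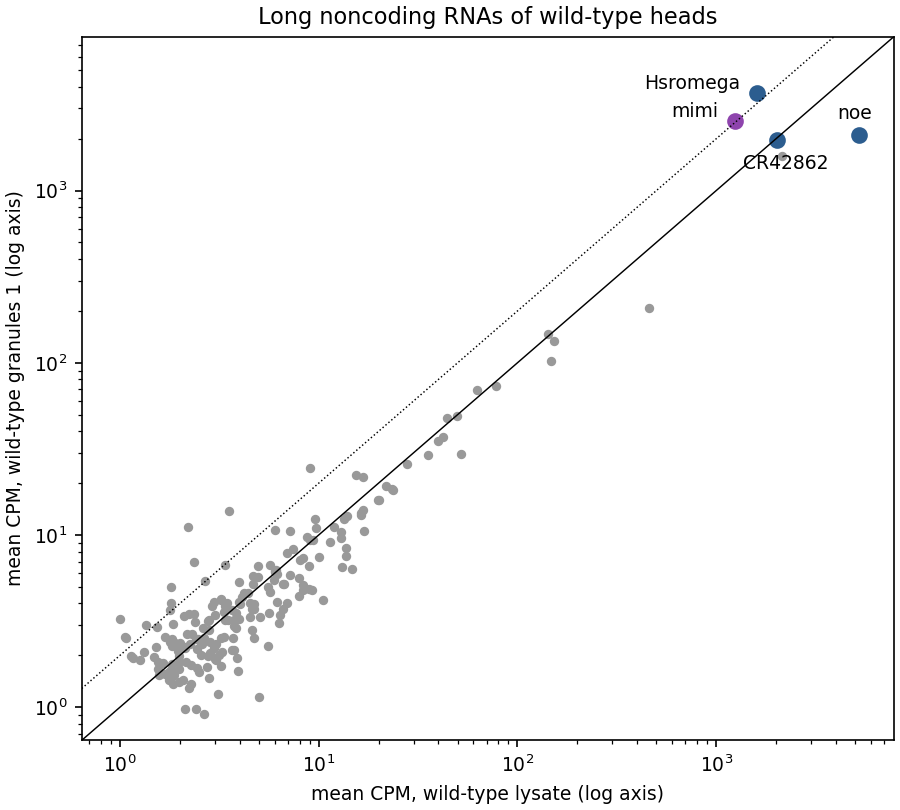
Mean CPM in wild-type granules 1 against mean CPM in wild-type lysate for the 209 long noncoding RNAs tested, both on log axes, with mimi in purple and 3 other abundant RNAs in blue. The solid line marks equal levels and the dotted line a ratio of 2; mimi (2523 CPM in granules 1, against 1239.7 CPM in lysate) lies on the dotted line, and noe below the solid one.

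In Δmimi preparations the reads that remained at mimi were not called as changed between pellet and lysate. Their CPM in granules 1 over lysate was 0.618, 1.20 and 0.627 within the 3 preparations, and in granules 2 over lysate 0.914, 1.70 and 0.545. The ratio was above 1 in preparation 2 and below 1 in the other preparations. Over lysate, the log2 fold change was −0.35 in granules 1 (SE 0.26, edgeR adjusted p = 0.472) and 0.06 in granules 2 (SE 0.36, edgeR adjusted p = 0.937). In these comparisons 4.65% of all genes tested in granules 1 and 4.32% in granules 2 were called. With 30 to 113 reads per library, these ratios rest on far fewer reads than those of wild type.

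Whether the pelleting of mimi reads differed between genotypes depended on the fraction and on the test. The deletion as stated removes all of mimi-RC, so the Δmimi reads may come from a different RNA than those of wild type. The tests below therefore cannot show whether the pelleting of the same RNA differed. For granules 1, all 3 ratios of Δmimi preparations (0.618 to 1.20) lay below all 3 of wild-type preparations (1.62 to 2.95), with an exact two-sided permutation p of 0.1, the smallest that 3 against 3 can give. For granules 2, the ratios overlapped between Δmimi (0.545 to 1.70) and wild-type preparations (1.64 to 2.52), and the exact two-sided permutation p was 0.2. The interaction, coded as the wild-type minus the Δmimi log2 ratio, was 1.34 for granules 1 (SE 0.32, edgeR adjusted p = 0.986) and 0.87 for granules 2 (SE 0.41, edgeR adjusted p = 0.9999). edgeR called 1 of 9774 genes (0.0102%) for granules 1, the transcription factor gene salr, named after its value was seen, and 0 of 9741 (0%) for granules 2, with 255 and 231 genes at an unadjusted p under 0.05. DESeq2 called 14 and 10 genes, and mimi was among them for granules 1 (interaction 1.36, SE 0.32, DESeq2 adjusted p = 0.0344) and not for granules 2. With each preparation of each genotype as a block, the edgeR adjusted p of mimi was 0.0560 for granules 1 and 0.157 for granules 2.

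**Figure D4:**
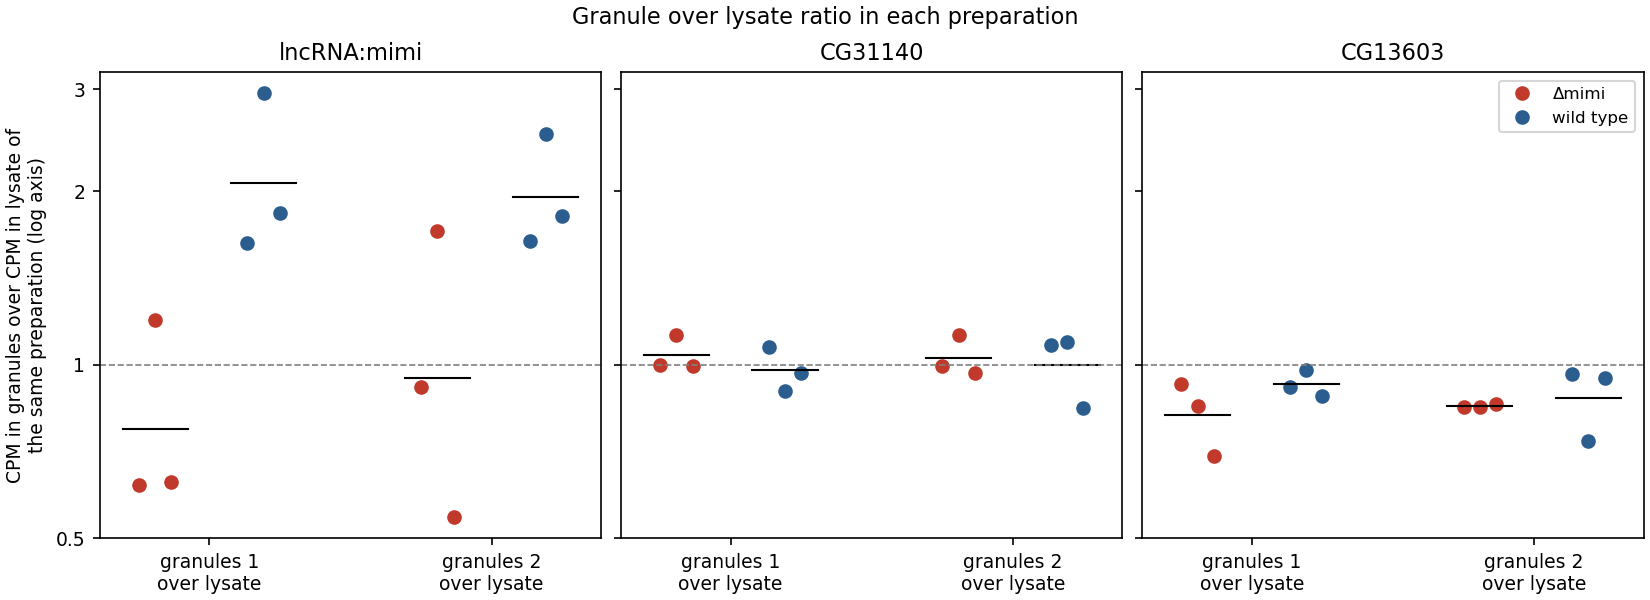
CPM in granules over CPM in the lysate of the same preparation, on a log axis, for mimi, CG31140 and CG13603. Each point is a preparation, Δmimi in red left of wild type in blue, the short line is the geometric mean of 3 and the dashed line marks equal levels; the mimi ratios of wild type lie between 1.62 and 2.95, and all ratios of the flanking genes lie between 0.693 and 1.13.

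Washed pellets (granules 2) showed no detectable difference in mimi from unwashed pellets (granules 1). These pellets came from split parts of a cleared lysate, so their ratios also hold any difference between the spins. Within a preparation, granules 2 over granules 1 was 1.48, 1.42 and 0.870 in Δmimi and 1.01, 0.852 and 0.988 in wild type. On the log2 scale this was 0.41 in Δmimi (SE 0.39) and −0.07 in wild type (SE 0.12), both with an edgeR adjusted p of 0.9999 or more. Across all genes, edgeR and DESeq2 each called 0 of 9749 genes in Δmimi and 0 of 9559 in wild type (0%) for the wash, with 57 and 97 genes at an unadjusted p under 0.05 in edgeR. With the preparation block, edgeR called 2 genes in Δmimi and 0 in wild type. The 2 genes, named after their values were seen, were the ribosomal RNA pseudogene 28SrRNA-Psi:CR40596 and the gene with the identifier FBgn0085799, both lower in granules 2.

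CG31140, the diacylglycerol kinase gene upstream of mimi, had a lower mean in Δmimi heads in each fraction, but the difference was not called. In lysate it had 174, 132 and 120.4 CPM in Δmimi heads, against 201, 158 and 179 CPM in wild-type heads. In granules 1 it had 174, 148 and 119.8 CPM in Δmimi preparations, against 215, 142 and 173 CPM in wild-type preparations. In granules 2 it had 173, 148 and 117 CPM in Δmimi preparations, against 217, 173 and 150.3 CPM in wild-type preparations. The 2 genotypes overlapped in every fraction, and within a genotype the libraries of preparation 1 were the highest in all 3 fractions.

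The group means of CG31140 were 142 ± 28.4, 147 ± 27.0 and 146 ± 28.4 CPM in Δmimi lysate, granules 1 and granules 2, and 179 ± 21.5, 177 ± 36.9 and 179.8 ± 33.8 CPM in the wild-type fractions in the same order (SD, n = 3 each). Between genotypes, Δmimi over wild type, the log2 fold change was −0.34 in lysate (SE 0.17, edgeR adjusted p = 0.458), −0.25 in granules 1 (SE 0.19, edgeR adjusted p = 0.521) and −0.29 in granules 2 (SE 0.19, edgeR adjusted p = 0.480). Between libraries of the same number, the ratio of Δmimi to wild type lay between 0.673 and 0.868 in lysate, between 0.692 and 1.05 in granules 1 and between 0.776 and 0.859 in granules 2. It was thus below 1 in 8 of 9 pairs, but the 3 fractions of a preparation are not independent. With the preparation number as a block, the log2 fold change was −0.35 in lysate (edgeR adjusted p = 0.0194), −0.25 in granules 1 (0.176) and −0.29 in granules 2 (0.00810), still short of the 0.5 that a call needed. Between genotypes this block pairs preparations of the same number, a pairing that the labels do not state and that was inferred from these data. Without preparation 2 of both genotypes it was −0.37, −0.40 and −0.32 and was not called (smallest edgeR adjusted p = 0.309).

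The listed markers of neurons and glia mostly had values in the same direction as CG31140, and those of muscle in the other. Photoreceptor markers, listed apart, were all below 0 in both granule fractions, but 3 of 5 were above 0 in lysate (median 0.01). The block called 9.45% of all genes tested between genotypes in lysate, 10.5% in granules 1 and 11.2% in granules 2, against the 1.64% to 5.76% without it. All 5 measured neuron markers of 6 (elav, nSyb, brp, Syt1 and Syn) had negative log2 fold changes in each genotype comparison, with medians of −0.32 in lysate, −0.15 in granules 1 and −0.25 in granules 2 and no marker called. With the preparation block, Syn (synapsin) was called lower in granules 1 (−0.54, edgeR adjusted p = 0.00133) and granules 2 (−0.56, edgeR adjusted p = 6.54e-05). The summed level of the 5 neuron markers ranged from 1169 to 1972 CPM over the Δmimi libraries and from 1551 to 2273 CPM over the wild-type libraries. The 5 glia markers had medians of −0.16 in lysate, −0.21 in granules 1 and −0.22 in granules 2, all 5 below 0 in both granule fractions and 4 of 5 in lysate. None was called, but with the block repo, a glial transcription factor gene, was called lower in lysate (−0.51, edgeR adjusted p = 0.00141) and wrapper in granules 2 (−0.51, edgeR adjusted p = 0.00307). All 5 muscle markers were above 0 in each fraction, with medians of 0.30, 0.44 and 0.31 and none called. With the block, Act88F, an actin of flight muscle, was called higher in all 3 fractions (1.09 to 1.31, largest edgeR adjusted p = 0.00472) and fln in lysate and granules 2. Without preparation 2 of both genotypes and without the block, Act88F was called higher in all 3 fractions (1.43, 1.89 and 2.25, largest edgeR adjusted p = 0.0197). fln was then called higher in granules 1 and granules 2 (2.24 and 1.91, largest edgeR adjusted p = 0.0248), and Mhc, up and Tm2 were not called. Lsp2, a storage protein gene of fat body, was called higher with the block in lysate and granules 2. Without preparation 2 of both genotypes and without the block, its log2 fold change was 0.16, 0.01 and 0.25 in lysate, granules 1 and granules 2. It was not called there (smallest edgeR adjusted p = 0.848). Of the 3 fat body markers tested, 1 was below 0 in each genotype comparison. The part of these markers in the lower CG31140 was not tested, and in these bulk samples fewer cells of a type and less RNA per cell cannot be told apart.

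CG31140 had near-equal levels in pellet and lysate. The ratio of granules 1 to lysate was 0.998, 1.13 and 0.995 in Δmimi and 1.07, 0.901 and 0.968 in wild type. The ratio of granules 2 to lysate was 0.996, 1.13 and 0.969 in Δmimi and 1.08, 1.10 and 0.840 in wild type. All log2 fold changes over lysate lay between −0.03 and 0.05, with SEs of 0.16 to 0.20, and none was called.

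CG13603, the gene on the other side, had nearly equal levels in the 2 genotypes. In lysate it had 68.4, 67.7 and 73.1 CPM in Δmimi heads, against 67.4, 72.6 and 73.1 CPM in wild-type heads. In granules 1 it had 63.3, 57.4 and 50.7 CPM in Δmimi preparations, against 61.6, 71.1 and 64.5 CPM in wild-type preparations. In granules 2 it had 57.7, 57.2 and 62.4 CPM in Δmimi preparations, against 64.9, 53.4 and 69.4 CPM in wild-type preparations. The genotypes overlapped in all 3 fractions. The log2 fold change of Δmimi over wild type was −0.03 in lysate (SE 0.10, edgeR adjusted p = 0.945), −0.19 in granules 1 (SE 0.12, edgeR adjusted p = 0.423) and −0.07 in granules 2 (SE 0.12, edgeR adjusted p = 0.822).

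In both genotypes CG13603 had a lower mean in the pellets than in lysate. The Δmimi granule libraries did not overlap the Δmimi lysates, the highest granule library having 63.3 CPM and the lowest lysate 67.7 CPM. Non-overlap of this kind was found for 29.1% of all genes tested in granules 1 and 28.7% in granules 2. Over lysate, the Δmimi log2 fold change was −0.29 in granules 1 (SE 0.12, edgeR adjusted p = 0.192) and −0.23 in granules 2 (SE 0.10, edgeR adjusted p = 0.224), and with the preparation block the adjusted p was 0.0165 and 0.0183 at about the same size. In wild type it was −0.12 in granules 1 (SE 0.10, edgeR adjusted p = 0.473) and −0.18 in granules 2 (SE 0.12, edgeR adjusted p = 0.377), and the libraries overlapped. None of these changes was called.

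In order of level, mimi was highest in wild-type granules 1 and granules 2, which overlapped, then in wild-type lysate, and then in the 3 Δmimi groups, which overlapped each other. The 6 group means of CG31140 lay between 142 and 179.8 CPM, and neighbours in that order overlapped throughout. Those of CG13603 lay between 57.1 and 71.0 CPM, with the lysates of both genotypes at the top. Over all 18 libraries the highest level was 425 times the lowest for mimi, 1.86 times for CG31140 and 1.44 times for CG13603.

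The study defined a component of mimi granules as an RNA whose log2 ratio of granules to lysate was larger in wild type than in Δmimi by over 0.5, or was positive and significant in wild type only, in both granule fractions. On these counts mimi met the first condition, with differences of 1.36 and 0.88, and the second condition in both fractions. For mimi this outcome is no test of the rule, since mimi is the gene deleted in Δmimi. Its Δmimi ratios rest on 30 to 113 reads per library, which may come from a different RNA. Its significance in wild type depended on which preparations were kept, as did the number of genes called, as given above. CG31140 (differences of −0.08 and −0.03) and CG13603 (0.17 and 0.05) met neither.

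Beyond CG31140 and CG13603, the neighbourhood of mimi held 15 other genes of the count table within 50 kb on either side, of which 13 were tested. None was called between genotypes in any fraction by edgeR, where the smallest adjusted p was 0.0752. At an unadjusted edgeR p under 0.05 there were 2 of the 13 genes, Epp and Miro, both in granules 1. Over all genes tested, 1947 of 9763 were at that level in granules 1, so these 2 are no trait of the neighbourhood. The median log2 fold change over these 13 genes was 0.01 in lysate, 0.04 in granules 1 and 0.01 in granules 2, against −0.01, −0.00 and 0.01 over all genes tested. The genes next in line were AP-1sigma, a clathrin adaptor subunit gene on the CG31140 side, with a log2 fold change of −0.23 in lysate, and CG5902 and Epp on the CG13603 side, with 0.01 and −0.25. GluProRS, which encodes the transfer RNA synthetase for glutamate and proline, was the 1 gene of the 13 called between pellet and lysate without a block. It was higher in granules 1 of Δmimi (log2 ratio 0.56 with an SE of 0.11, edgeR adjusted p = 0.0297) and in granules 2 of wild type (0.53, SE 0.12, edgeR adjusted p = 0.0283). Over all genes tested, 4.65% and 9.46% were called in these comparisons, so the call is no trait of the neighbourhood.

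The largest difference between genotypes in this neighbourhood was that of CG12268, a gene of the fatty acyl-CoA reductase family. It had 68.5, 176 and 99.8 CPM in Δmimi lysates, against 42.1, 102 and 59.7 CPM in wild-type lysates. The genotypes overlapped, but in each pair of the same number the Δmimi lysate was the higher. The log2 fold change was 0.74 in lysate (SE 0.41, edgeR adjusted p = 0.490), 0.77 in granules 1 (SE 0.41, edgeR adjusted p = 0.357) and 0.72 in granules 2 (SE 0.37, edgeR adjusted p = 0.369). With the preparation block, the adjusted p was 0.000113 in lysate, 0.00153 in granules 1 and 3.76e-05 in granules 2, and CG12268 was called higher in all 3, where the block called 9.45%, 10.5% and 11.2% of all genes tested. CG12268 was highest in preparation 2 of both genotypes, as the muscle markers were. Without those preparations its log2 fold change was 0.72, 0.69 and 0.60 and was not called (smallest edgeR adjusted p = 0.107). LSm3, a gene of the U6 spliceosomal Lsm ring, was called lower in Δmimi granules with the block alone, with log2 fold changes over lysate of −1.05 in granules 1 (edgeR adjusted p = 0.00174) and −0.66 in granules 2 (edgeR adjusted p = 0.0133), against −1.07 (0.0609) and −0.67 (0.154) without it. With the block, 14.2% and 14.8% of all genes tested were called in these comparisons. Gdh, the glutamate dehydrogenase gene, was likewise called lower in wild-type granules 1 with the block alone (log2 ratio −0.63, edgeR adjusted p = 0.00627), against −0.65 (0.0865) without it. There the block called 16.7% of all genes, and 18% in wild-type granules 2 over lysate.

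**Figure D5:**
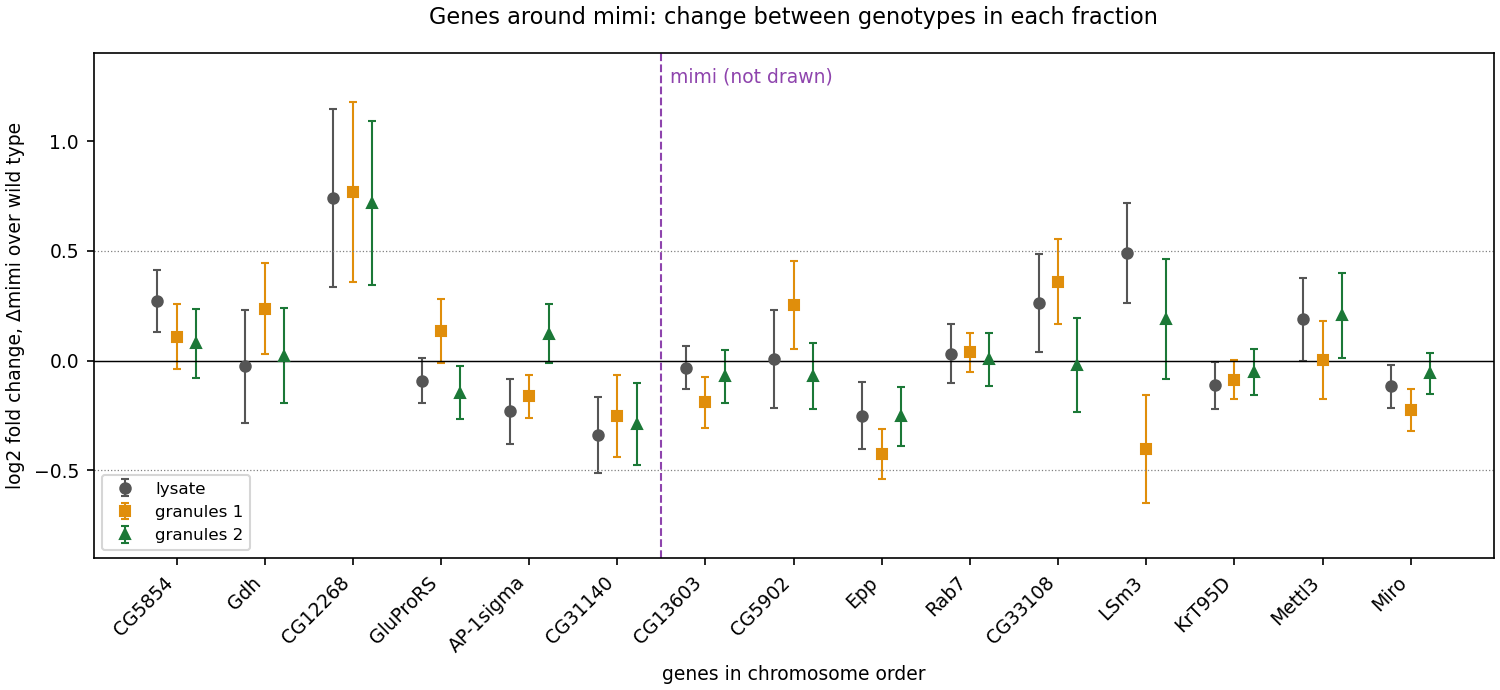
Log2 fold change of Δmimi over wild type (± SE, n = 3 per genotype) for CG31140, CG13603 and the 13 other genes tested within 50 kb, in chromosome order, by fraction. The dashed line marks the place of mimi, which is not drawn (−6.55, −7.89 and −7.41), and the dotted lines mark the fold needed for a call; CG12268 lies highest, at 0.72 to 0.77, with SEs of about 0.4.

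CG31140 belongs to a pathway in which phospholipases make diacylglycerol, kinases use it up and protein kinases C respond to it. Of 14 other genes of this pathway, 13 were measured and tested, and none was called between genotypes in lysate. laza was the 1 gene of the 13 called lower in Δmimi granules 1 and granules 2. Over all genes tested, 5.76% and 5.24% were called in these comparisons, so 1 of 13 is no result about the pathway. laza encodes a lipid phosphate phosphatase of photoreceptors that makes diacylglycerol from phosphatidic acid, the reverse of the kinase step. It had 482, 360.5 and 434 CPM in Δmimi granules 1, against 779, 764 and 861 CPM in wild-type granules 1, with no overlap. The log2 fold change of Δmimi over wild type was −0.90 in granules 1 (SE 0.13, edgeR adjusted p = 0.00685), −0.87 in granules 2 (SE 0.14, edgeR adjusted p = 0.0109) and −0.31 in lysate (SE 0.13, edgeR adjusted p = 0.333). Without preparation 2 of both genotypes laza was called in the same fractions, at −0.84 and −0.79 (largest edgeR adjusted p = 0.0349). laza was also the 1 gene of the pathway called higher in the pellets than in lysate, with log2 fold changes of 1.42 and 1.43 in Δmimi granules 1 and 2 and of 2.01 and 2.00 in wild type (largest edgeR adjusted p = 0.00472). Between 4.32% and 9.46% of all genes tested were called in the 4 comparisons of pellet and lysate. The interaction of laza, wild type minus Δmimi, was 0.58 for granules 1 and 0.56 for granules 2 and was not called (edgeR adjusted p = 0.9999 for both). All 5 photoreceptor markers had negative log2 fold changes between genotypes in both granule fractions, with medians of −0.14 in granules 1 and −0.11 in granules 2. In lysate 3 of the 5 were above 0, with a median of 0.01. None was called in any fraction, and the part of these markers in the lower laza was not tested. The other diacylglycerol kinase genes had log2 fold changes of −0.04 (rdgA), −0.41 (Dgk) and −0.01 (Dgkepsilon) for Δmimi over wild type in lysate, and none of them was called.

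The messenger RNAs of the proteins that the study names as partners of mimi showed no called difference between genotypes. fne, Rbp9, elav and stau (Staufen) had log2 fold changes of −0.24, 0.11, −0.21 and 0.16 in lysate, and 0 of the 4 was called in any genotype comparison. Rbp9 was the 1 messenger called between pellet and lysate, and it was lower in granules, opposite to mimi. It averaged 316 ± 28.6 CPM in Δmimi granules 1, against 670.2 ± 67.2 CPM in Δmimi lysate, and 302 ± 30.7 CPM in wild-type granules 1, against 617 ± 111 CPM in wild-type lysate (SD, n = 3 each). Its log2 fold change in granules 1 was −1.09 in Δmimi (SE 0.13, edgeR adjusted p = 0.00485) and −1.04 in wild type (SE 0.16, edgeR adjusted p = 0.00913). In granules 1 over lysate, 4.65% of all genes tested were called in Δmimi and 8.17% in wild type.

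As a last description, genes were ranked by how closely their profile followed that of each of the 3 genes, as the root mean square difference of centred log2(CPM + 1) values. Over the 9 wild-type libraries, CG6357 (0.11), CG5883 (0.14), Prat (0.15), Sytalpha (0.16) and Ssk (0.16) came closest to mimi, against a median of 0.56 over 9652 genes. Over all 18 libraries, CG43737 (0.08), EndoA (0.08), CG42322 (0.09) and CG10384 (0.09) came closest to CG31140, and Alg11 (0.08), Spase25, CG9917 and Rtca (0.09 each) to CG13603, against medians of 0.37 and 0.29 over 9743 genes. The libraries share preparations, so these distances are descriptions of the libraries.

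Library totals ranged from 3635256 to 7798946 counts, and no library departed from its label at mimi. Photoreceptor markers summed to 27701 to 48295 CPM in all libraries, and testis markers to 7.57 to 14.4 CPM. 4 of 6 oocyte and ovary markers were measured, and they summed to 52.0 to 119.8 CPM in the Δmimi libraries, against 17.0 to 41.2 CPM in the wild-type libraries. 3 of them (osk, bcd and otu) were called higher in Δmimi granules 1 and granules 2 and none in lysate, where all 3 were called higher with the preparation block (largest edgeR adjusted p = 0.00345). Without preparation 2 of both genotypes, bcd lost its call in granules 2 (edgeR adjusted p = 0.0681). The part of these transcripts in the results above was not tested.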

How the data were processed

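The authors made stranded total RNA libraries, processed the reads with the RNA-seq module of snakePipes (STAR and featureCounts from Subread, dm6, Ensembl annotation) and deposited whole-number read counts per gene, with no normalization and replicates not pooled. Which strand was counted, and the versions of these tools, are not given in the sources used here. A deposited table of the authors' own fold changes was not used. The 3 genes and all lists were chosen with earlier results of these data known. Counts were tested with edgeR 4.0.16 (quasi-likelihood, TMM, R 4.3.3) on genes with a base mean above 10, using only the groups compared, with Benjamini-Hochberg adjustment over all genes tested. A gene was called at adjusted p under 0.05 and absolute log2 fold change above 0.5. Levels are CPM with TMM factors over all 18 libraries. The fits were tested on simulated data. DESeq2 1.42.0, RLE factors, other filters, all 18 libraries in 1 fit, a preparation block and leaving out each preparation were alternatives, and leaving out preparation 2 of both genotypes was added after seeing the data.

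Genes named were the 3 genes themselves, neighbours within 50 kb that were called or lie next in line, called members of the diacylglycerol list, the 4 binding proteins, the 5 nearest profiles and RNAs close in rank. Gene positions came from the Ensembl annotation of BDGP6.54, which matched 17252 of 17558 identifiers. The fractions of a number come from 1 preparation, and deviations from the group means correlated at 0.31 to 0.77 between same-numbered libraries of the groups compared, over 9592 genes, so the numbers were taken to pair the libraries. No library was a copy of another (chi-square per degree of freedom of replicate pairs at least 5.77). Nothing states how independently the preparations were raised, so p-values measure the spread between these samples.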

Additional observations from a re-analysis of the deposited data

How the results depend on the processing

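The 33 results for the 3 genes (11 comparisons each) were recomputed 357 times under the alternatives, of which 334 values kept both their direction and their side of the threshold. RLE size factors, no filter, a base mean above 50, all 18 libraries in 1 fit and the preparation block changed no call and no direction of the 3 genes. The block moved the interaction of mimi to 1.37 for granules 1 and 0.92 for granules 2, not called, and among the neighbours within 50 kb, the diacylglycerol list, the 4 binding proteins and, between genotypes, the marker lists it changed no other call than those of CG12268, LSm3, Gdh, Syn, repo, wrapper, Act88F, fln, Lsp2, osk, bcd and otu given above. The 1 call gained was the interaction of mimi for granules 1 in DESeq2 (1.36, adjusted p = 0.0344).

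Leaving out 1 preparation lost 4 calls, those of mimi over lysate in wild type without preparation 1 or 3, with log2 fold changes of 0.78 to 1.20 in granules 1 and 0.79 to 1.08 in granules 2 over all such fits. The genotype difference of mimi kept its call throughout, at −6.71 to −6.39 in lysate, −8.15 to −7.69 in granules 1 and −7.75 to −7.11 in granules 2. The sign turned in 16 such fits of values that were never called. Without preparation 2 of both genotypes it turned for CG13603 between genotypes in lysate (0.0076) and for CG31140 in the interaction for granules 1 (0.042), neither called, and no call of the 3 genes changed. Over the fits, CG31140 ranged in Δmimi from −0.016 to 0.088 (granules 1 over lysate) and −0.0037 to 0.073 (granules 2 over lysate), in wild type from −0.11 to 0.029 and −0.060 to 0.10, for the wash from −0.024 to 0.0053 (Δmimi) and −0.064 to 0.14 (wild type), and from −0.13 to 0.047 for the interaction in granules 2. CG13603 ranged from −0.17 to 0.00049 between genotypes in granules 2, from −0.066 to 0.14 (Δmimi) and −0.15 to 0.10 (wild type) for the wash, and from −0.045 to 0.17 for the interaction in granules 2. mimi ranged from −0.36 to 0.31 for granules 2 over lysate in Δmimi and from −0.11 to 0.012 for the wash in wild type.

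The number of genes called depended on the setting far more than the 3 genes did. It was 160 in lysate between genotypes (73 to 924 under the alternatives), 562 in granules 1 (246 to 1023) and 505 in granules 2 (243 to 1082). Over lysate it was 453 in granules 1 (17 to 1385) and 422 in granules 2 (10 to 1448) of Δmimi, against 796 (49 to 1630) and 909 (79 to 1731) in wild type. The interaction gave 1 (0 to 35) and 0 (0 to 43), the wash 0 (0 to 2) in Δmimi and 0 throughout in wild type, and the highest counts came with the preparation block. Within 100 kb of mimi, 0 of 28 genes tested was called between genotypes by edgeR. Hsp68, Epp and Miro had an unadjusted edgeR p under 0.05 in 1 or more fractions. Over all genes tested, 1357 of 9774 in lysate, 1947 of 9763 in granules 1 and 1775 of 9636 in granules 2 were at that level. With the block, Hsp68 was called higher in all 3 fractions (log2 fold changes of 0.79, 0.74 and 0.80, largest edgeR adjusted p = 0.00111), as was CG12268, and CG5986 lower in wild-type granules 1 over lysate. Without preparation 2 of both genotypes and without the block, Hsp68 was called higher in granules 1 (0.68, edgeR adjusted p = 0.0398) and not in lysate or granules 2. With a pseudocount of 5, 3 of the 5 genes nearest to mimi, 5 for CG31140 and 3 for CG13603 were the same. The density of the remaining mimi reads over the bases left by the deletion was added after seeing the data (over all 500 bases annotated only in mimi-RD it was 0.861 to 2.06 times that of CG31140). Cut sites were not placed from the guides.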
